A study of Coprinopsis cinerea with 7 samples.

Results

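The regions described here are long stretches of the 13 chromosomes of Coprinopsis cinerea, an ink cap mushroom and model fungus, along which no shared enrichment for oxidized methylcytosine was measured. They were chosen by the measured enrichment itself. For each 300 bp window, E is the log2 ratio of the mean CPM (counts scaled to a common column total) of the immunoprecipitated (IP) columns over that of the input columns, with 0.1 CPM added to each, minus the median of all windows of the same table. A stretch is a run of at least 100 consecutive windows (30 kb) in which no window reached an E of 0.4, a 1.32-fold ratio, in both deposited tables. There were 313 such stretches. They held 86618 of the 119376 windows of chromosomes 1 to 13, which is 72.6% of the chromosomes, and of 120537 windows in the series.

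The assay was CMS-seq of genomic DNA from oidia, the asexual spores of this fungus. Bisulfite converts 5-hydroxymethylcytosine to cytosine-5-methylenesulfonate (CMS), and fragments carrying CMS are then pulled down with a non-commercial antiserum. The labels describe 5 IP libraries (3 of biological replicate 1 and 2 of biological replicate 2) and 2 input libraries, 1 for each biological replicate. The tables used hold 2 IP and 2 input columns, tagged 1_1 and B_1, and the labels do not tie these tags to the biological replicates. All columns are of oidia, with no second stage, strain or treatment in the labels. The stretches are therefore described as IP against input, and as stretches against the rest of the same chromosomes.

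In many fungi 5-methylcytosine lies mainly on transposons and other repeats, and most of the gene space carries little of it. Enzymes of the TET/JBP family oxidize 5-methylcytosine to 5-hydroxymethylcytosine and further products, and this mushroom carries an expanded family of them. An antiserum pull-down reads a relative amount: a window at the genome's median level has an E of 0, whatever the absolute level of the mark.

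One table, called primary here, and a second one whose name refers to multiple mapped and unique reads, called multi-mapped here, cover the same windows. The headers of the multi-mapped table name the input columns only, so its other 2 count columns were taken as IP. Summed window counts in the primary table were 106176723 and 67181684 for the IP columns and 36059418 and 36233140 for the inputs. The multi-mapped sums were 24990768 and 19994333 for the IP columns and 28735765 and 27600179 for the inputs. The median stretch window held 720 and 447 IP counts and 271 and 279 input counts in the primary table, so counting alone gives E in such a window a standard error of 0.08. For multi-mapped counts, with medians of 165 and 125 IP counts and 202 and 197 input counts, that error is 0.11. Both cover counting error only, and whether a read was counted in more than 1 window is not stated.

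The stretches ranged in length over more than an order of magnitude. The shortest was 30 kb, the median 60.0 kb and the longest 522.6 kb, with quartiles at 42.3 and 100.2 kb. Much of their total length of 25.99 Mb lay in the long ones: 79 stretches of at least 100 kb held 51.4% of the stretch windows, and 23 of at least 200 kb held 21.9%. Between and beside the stretches the chromosomes were cut up finely. The windows at or above the threshold in both tables numbered 6199, or 5.19% of chromosome windows, and the 1907 shorter runs between them had a median of 5 windows.

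The share of a chromosome lying in stretches differed between chromosomes. It was highest on chromosome 5 (83.6%) and chromosome 1 (80.9%) and lowest on chromosome 9 (56.6%), chromosome 12 (56.9%) and chromosome 6 (63.0%). The other 8 chromosomes lay between 70.6% and 76.9%. Chromosome 2 carried the largest number of stretches, 37, and chromosome 13, the shortest chromosome, carried 11.

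**Figure D1:**
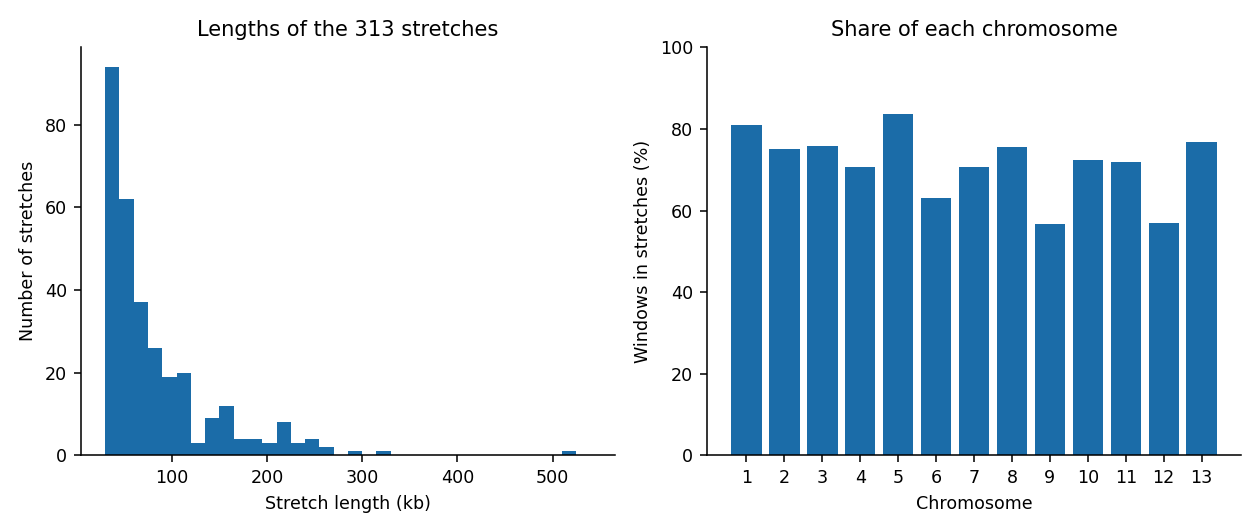
Lengths of the 313 stretches in bins of 15 kb (left) and the percentage of each chromosome's windows that lay in stretches (right). Most stretches were under 100 kb, with a tail to 522.6 kb, and chromosomes 6, 9 and 12 had the lowest shares.

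The longest stretch, at positions 2124601 to 2647200 of chromosome 1, held 212 gene models, from CC1G_03728 to CC1G_01826, and 86.2% of its bases lay inside genes. Its windows averaged 7.05 and 6.87 CPM in the IP columns and 7.84 and 7.94 CPM in the inputs of the primary table. By multi-mapped counts they averaged 6.61 and 6.27 CPM in the IP columns and 7.01 and 7.13 CPM in the inputs. Both IP columns lay below both inputs in both tables, and mean E was -0.02 in the primary table and -0.03 in the multi-mapped one. The median of all windows was below input too, with an uncentred log2 ratio of -0.15 (primary) and -0.11 (multi-mapped). Of its 1742 windows, 11 reached an E of 0.4 in the primary table and 0 did so in the multi-mapped table. A single window at 2647201 to 2647500, inside a gene, ended it. That window held 1028 and 724 IP counts, against 201 and 189 input counts, in the primary table, and its E was 1.06 there and 0.72 in the multi-mapped table. Beyond that window began the fourth longest stretch of the genome, 267.0 kb with 116 genes. Without that window the 2 would form 1 stretch of 789.9 kb.

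The next longest stretches lay on chromosome 11. The stretch at 1505101 to 1828800 was 323.7 kb long, held 114 genes and had a gene cover of 64.4%. The stretch at 841501 to 1130100 was 288.6 kb long and held 115 genes, 9 of them tRNA genes, which was the largest number of tRNA genes in any stretch. Mean E was -0.04 and -0.03 in the primary table for these stretches, close to that of the longest one. The remaining 6 of the 10 longest measured 238.5 to 256.2 kb, and lay on chromosomes 1, 2, 3 and 5 with 85 to 119 genes each. The longest stretch of the other chromosomes ranged from 142.2 kb on chromosome 6 to 233.4 kb on chromosome 8.

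At the lower limit of length, the 6 shortest stretches, at 30 to 30.3 kb just inside it, had mean E values of -0.05 to -0.03 in the primary table. Just outside it were 1 run of 98 windows and 5 runs of 99 windows, with mean E values of -0.06 to 0.34. On the scale of E the threshold also cut a continuous range. The lower of a window's 2 values lay between 0.35 and 0.4 in 255 stretch windows, and between 0.4 and 0.45 in 1926 of the windows that end runs. The first count leaves out the windows of shorter runs and the second covers whole chromosomes, so their sizes are not comparable.

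Because the rule used E, the levels of E in the stretches are a description and carry no test. Median E was -0.03 in the stretches and 0.20 in the rest of the chromosomes in the primary table, and -0.03 and 0.21 in the multi-mapped table. Low values were about as low in both: the 5th percentile was -0.30 in the stretches and -0.26 in the rest in the primary table. The upper side was where they parted, with a 95th percentile of 0.25 in the stretches and 1.18 in the rest. The stretches held 62.4% and 60.2% of all IP counts and 69.3% and 69.8% of all input counts in the primary table. Of multi-mapped counts they held 59.0% and 56.0% of IP counts and 62.5% and 63.0% of input counts.

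Coverage was more even along the stretches than in the rest. In the primary table the coefficient of variation of CPM over stretch windows was 0.438 and 0.410 for IP, against 0.434 and 0.404 for input. Over the rest of the chromosomes it was 1.79 and 2.21 for IP, against 1.27 and 1.28 for input. The rule itself leaves windows with IP far above input to the rest of the chromosomes, so these values describe the selection.

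Some windows inside the stretches still stood high in 1 of the tables, which the rule allows. An E of at least 0.4 was found in 1049 stretch windows (1.21%), against 11096 windows of the rest (33.9%), in the primary table. By multi-mapped counts it was found in 212 stretch windows (0.245%), against 7628 of the rest (23.3%). Only 24 stretches had no such window in either table, and the longest of these had 345 windows. The highest primary value in any stretch was 2.46, at positions 1806601 to 1806900 of chromosome 10, where no gene model lies. That window held 4065 and 4124 IP counts, against 348 and 372 input counts, in the primary table. Its multi-mapped counts were 222 and 193 in the IP columns, against 230 and 215 in the inputs, an E of 0.33. The highest multi-mapped value, 1.05, stood at positions 586801 to 587100 of chromosome 9. There the primary table held 23 and 33 IP counts, against 17 and 11 input counts, and E was 0.05.

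Averaged over a whole stretch, E lay in a narrow range in 310 of the 313. The mean per stretch had a median of -0.03 in the primary table and -0.02 in the multi-mapped one, and lay below 0 in 290 (primary) and 283 (multi-mapped) of the 313. The lowest mean in the primary table, -0.11, belonged to the stretch at 26101 to 72300 of chromosome 12. Over the 313 stretches the means of both tables, which rest on partly the same libraries, had a Spearman rho of 0.691.

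The 3 remaining stretches did not match the description "free of enrichment". They lay at 267901 to 300300 of chromosome 7, 346501 to 385200 of chromosome 6 and 596101 to 630300 of chromosome 11. Their mean E was 0.33, 0.31 and 0.31 in the primary table, and 0.23, 0.24 and 0.23 in the multi-mapped table. The next highest mean of any stretch was 0.06 in the primary table and 0.07 in the multi-mapped one. Most of their windows were raised and not a few: 98.1%, 95.3% and 89.5% lay above 0 in the primary table, and 100%, 99.2% and 100% in the multi-mapped table. The chromosome 11 stretch was the least even in primary counts, with 1.5 kb bins down to -0.01 inside it, where the multi-mapped value was 0.32. Primary input counts were below 0.1 times the median in 24 of its 114 windows. They were so in 17 of 129 windows on chromosome 6 and 2 of 108 on chromosome 7, against 0.483% of all stretch windows.

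The level was raised in each column, input included. The chromosome 7 stretch averaged 12.8 and 12.9 CPM per window in the IP columns and 11.2 and 11.2 CPM in the inputs of the primary table. The chromosome 6 stretch averaged 11.4 and 11.4 CPM in the IP columns and 10.002 and 9.986 CPM in the inputs. The chromosome 11 stretch averaged 11.9 and 12.1 CPM in the IP columns and 10.2 and 10.1 CPM in the inputs. For the other 310 stretches the medians were 7.16 and 6.91 CPM in the IP columns and 7.94 and 8.02 CPM in the inputs. In the primary table both IP columns exceeded both inputs in these 3 stretches and in 0 of the other 310. The 3 were picked by their mean E, and the median window of that table had an uncentred log2 ratio of -0.15. This split therefore largely follows from the choice. In the multi-mapped table the 3 stretches had inputs of 11.3 to 13.2 CPM, against medians of 7.17 and 7.23 CPM in the other 310. What part the higher input plays in E there was not tested.

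The raised level went on beyond the ends of these stretches. In the 30 kb before and after them the mean E was 0.29 and 0.35 on chromosome 7, 0.38 and 0.20 on chromosome 6 and 0.35 and 0.32 on chromosome 11, in the primary table. Those flanks held 4 and 17, 7 and 17, and 18 and 13 windows at or above the threshold in both tables. Windows next to the stretches were raised on both sides, but some of these means rest on a few high bins, and in places the raised level ended within the flank. After the chromosome 6 stretch a 1.5 kb bin centred 27.75 kb from its middle reached 1.83, and from 30.75 kb on the bins lay between -0.12 and 0.14. Before the chromosome 11 stretch a bin of 2.43 stood at 39.75 kb from the middle, with bins of 0.36 to 0.54 further out. Between that bin and the stretch, the bins at 36.75 to 30.75 kb lay between -0.19 and 0.02. After the chromosome 11 stretch the bins from 38.25 kb on lay between -0.19 and 0.11. Before the chromosome 7 stretch the bins from 39.75 kb outwards lay between -0.13 and 0.03. They contain 15 genes (CC1G_09760 to CC1G_09746) on chromosome 7, 10 genes (CC1G_15521 to CC1G_12745) on chromosome 6 and 17 genes (CC1G_15674 to CC1G_15678) on chromosome 11. Their gene cover of 65.1%, 69.6% and 73.4% was like that of other stretches, and the gene table gives no product names for these genes.

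**Figure D2:**
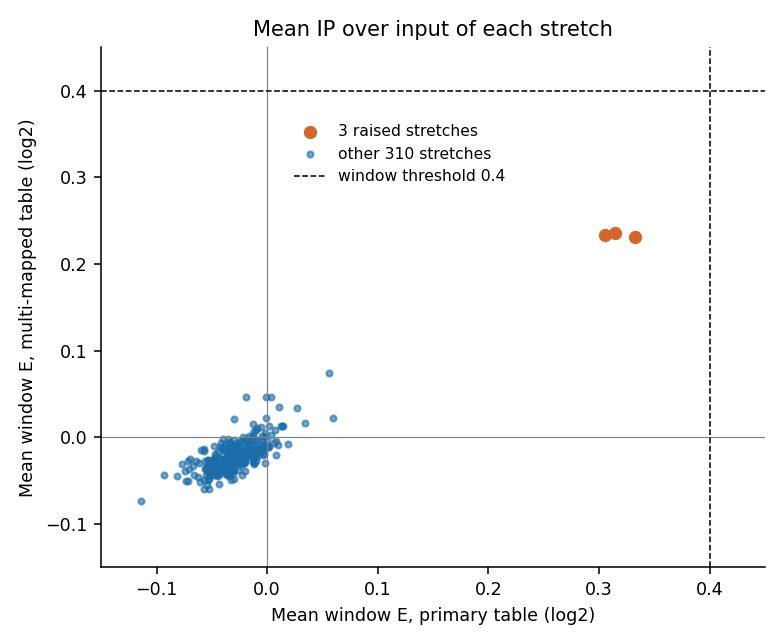
Mean window E of each stretch in the primary table (x axis) and the multi-mapped table (y axis), both log2, 1 point per stretch. The 310 other stretches lie around -0.03 and -0.02, and the 3 raised stretches stand apart at 0.31 to 0.33 and 0.23 to 0.24.

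**Figure D3:**
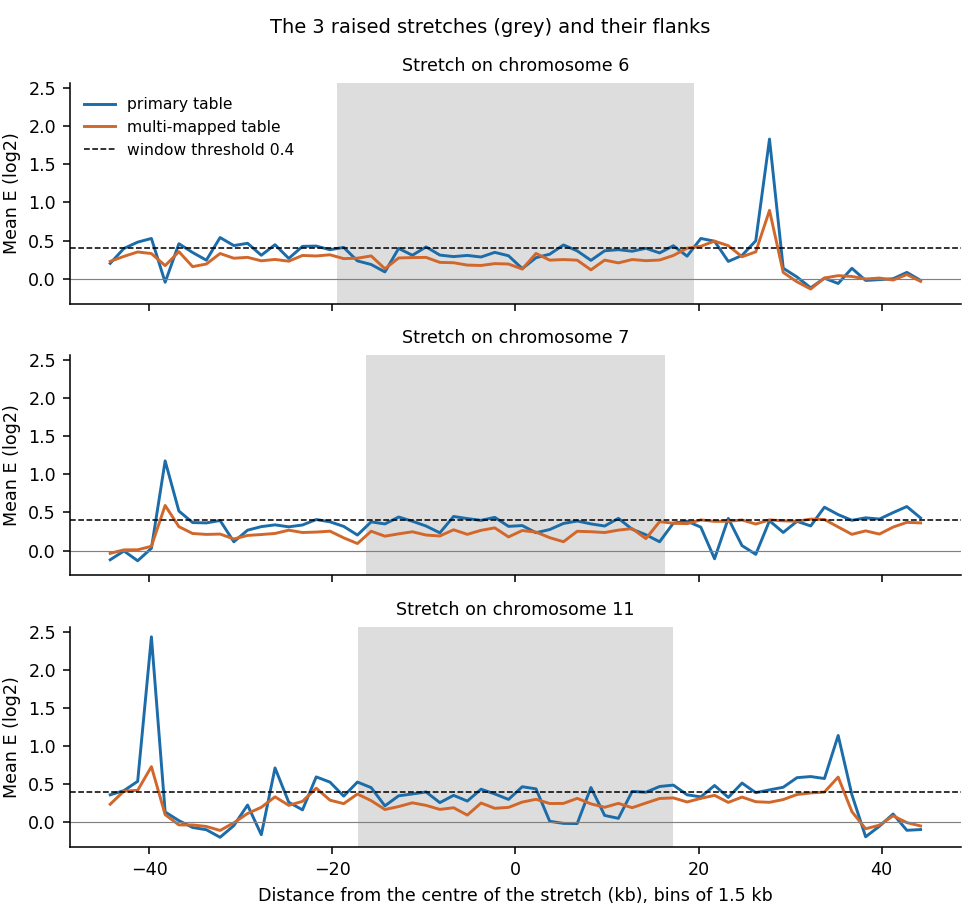
Mean E (log2) in bins of 1.5 kb across the 3 raised stretches (grey) and their flanks, against distance from the stretch centre in kb. E stays above 0 through most of each stretch in both tables, and the raised level goes on for some distance past its ends.

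The gene models were not used by the rule, and the stretches were richer in genes than the rest of the chromosomes. Genes covered 70.1% of the bases of the stretches, against 52.5% of the rest. The difference had the same sign on 13 of 13 chromosomes, from 8.70 percentage points on chromosome 12 to 22.6 on chromosome 6. Against the shorter runs alone, with a cover of 56.4%, it also had this sign on 13 of 13 chromosomes. The windows that end the runs had the lowest cover, 35.8%. Regions along 1 genome are not replicates, so these values are given without a test.

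Single stretches varied widely in gene cover, from 40.7% to 89.1% with a median of 69.1%, and 199 of the 313 were at or above the mean of their chromosome. The most gene-dense were on chromosome 2, at 2035501 to 2122800 (89.1%) and 2202601 to 2248200 (88.4%), and on chromosome 5, at 1715401 to 1795200 (87.3%). The least gene-dense were at 3387601 to 3417600 of chromosome 4 (40.7%), 15901 to 58800 of chromosome 9 (42.4%) and 122101 to 162900 of chromosome 7 (43.3%). Gene cover and mean E were only weakly related: over the 313 stretches the Spearman rho of mean E with gene cover was 0.150 in the primary table and -0.036 in the multi-mapped one. The rule caps E, and mean E had an SD over the stretches of 0.040 (primary) and 0.031 (multi-mapped). This narrow range enters both rho values.

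**Figure D4:**
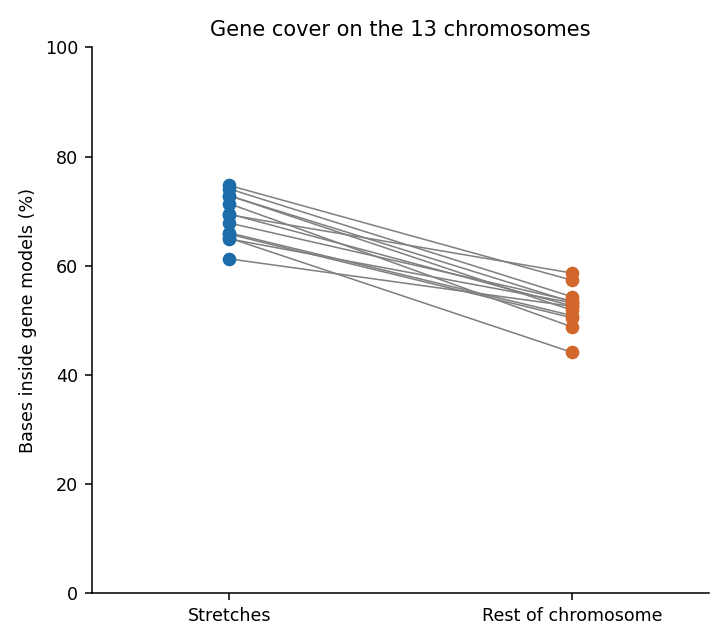
Percentage of bases inside gene models in the stretches (left) and in the rest of the same chromosome (right), 1 line per chromosome. The value is higher in the stretches on 13 of 13 chromosomes.

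By gene midpoint the stretches held 10257 of 13497 genes (76.0%), at 39.5 genes per 100 kb, against 33.0 per 100 kb in the rest. Their protein-coding genes were longer, with a median of 1527 bp against 1336 bp in the rest, and this order held on 13 of 13 chromosomes. Short gene models were less frequent in the stretches: 9.14% of protein-coding genes were under 600 bp, against 14.3% in the rest. The space between genes was smaller, with a median gap of 500 bp in the stretches and 624 bp in the rest, an order found on 11 of 13 chromosomes. Long gaps were rarer too. Gaps of at least 3000 bp made up 2.69% of gaps in the stretches (271 of 10070) and 9.70% in the rest (317 of 3268), and the longest was 14238 bp in the stretches and 29543 bp in the rest.

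The tRNA genes, which encode the RNAs that bring amino acids to the ribosome, lay in the stretches about as often as windows did. The stretches held 176 of 255 tRNA genes (69.0%), beside 72.6% of the chromosome windows. That is 6.77 per Mb, against 8.04 per Mb in the rest. They were found in 94 of the 313 stretches.

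Within the stretches E still differed slightly between genes and the space around them. In the primary table median E was -0.05 in windows with their midpoint in a gene and 0.00 in windows between genes. In the rest of the chromosomes these medians were 0.11 and 0.30. The multi-mapped table gave -0.04 and 0.00 in the stretches and 0.10 and 0.32 in the rest. Genic windows had the lower median in both kinds of sequence. The rule caps E in the stretches, so the 2 distances between medians are not comparable.

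Windows with few input reads in the primary table were rarer in the stretches than in the rest. Windows with an input count below 0.1 times the median made up 0.483% of stretch windows, against 6.61% of the rest, and the share was lower in the stretches on 13 of 13 chromosomes. With multi-mapped reads such windows made up 0.00231% of stretch windows and 0.00305% of the rest. No such window lay in 219 stretches by the primary counts. Input is the denominator of E, so this feature is not independent of the rule. A total under 10 counts was found in 229 stretch windows and 791 windows of the rest in the primary table, and there the 0.1 CPM added makes up most of both terms of E, so a stretch may run across such windows without a measurement in that table.

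Stretches were scarce near the ends of chromosomes. Of windows within 20 kb of an end, 17.9% lay in stretches, and the share was 48.7% at 20 to 50 kb, 41.8% at 50 to 100 kb, 51.1% at 100 to 200 kb, 66.0% at 200 to 400 kb and 79.5% further in. At 16 of 26 chromosome ends the outer 20 kb held no stretch window. The first stretch began a median of 36.3 kb from the end, and 372.6 kb from it at the far end of chromosome 9. The starts of chromosomes 2 and 13 were exceptions, where a stretch began at the first base.

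The edges of the stretches were sharp. The outermost window inside a stretch had a median E of 0.25 in the primary table and 0.21 in the multi-mapped one, the next one 0.02 in both, and the fourth -0.01 and -0.02. Outside, the median was 0.89 and 0.54 in the window at the edge, 0.85 and 0.53 in the next and 0.32 and 0.26 in the third. Part of these outside windows lay in a neighbouring stretch: 17.3% of the second windows, 26.6% of the third and 54.6% of the 50th. The rule fixes the step at the edge. Gene cover, which the rule did not use, was 45.8% in the window just outside and 50.8% in the outermost window inside. It was 60.1% in the second window inside and 64.6% in the third, and lay between 65.2% and 72.2% from the fourth to the 50th.

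**Figure D5:**
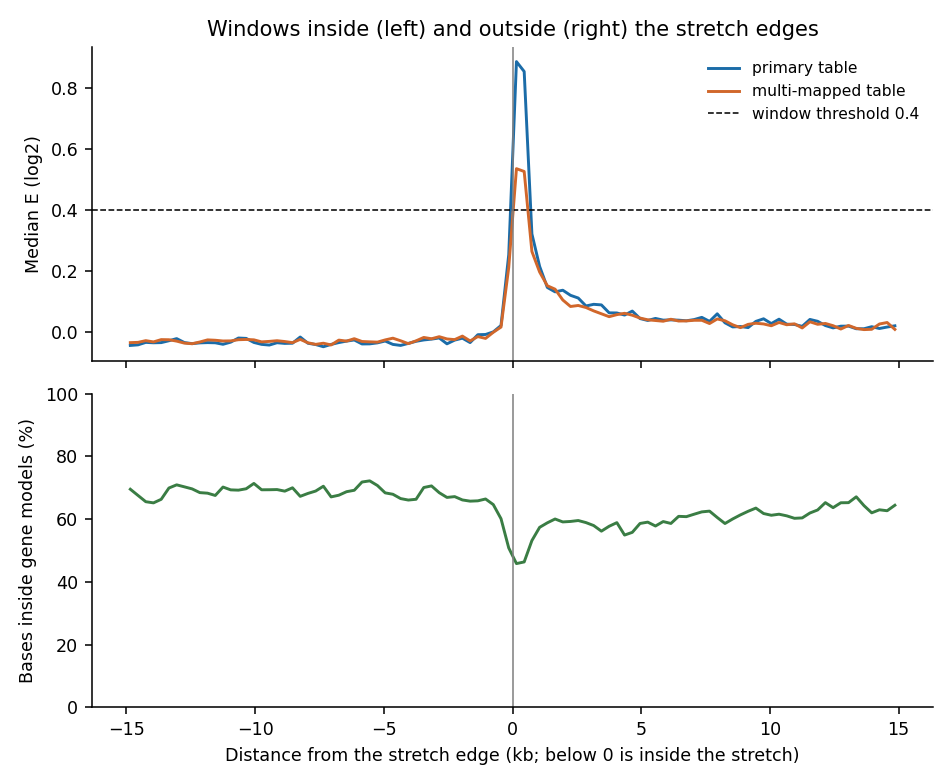
Median E (top, log2) and bases inside gene models (bottom, %) by distance from the stretch edge in kb, with the inside of the stretch on the left. E drops within 3 windows of the edge. Gene cover rises to 64.6% in the third window inside and lies between 65.2% and 72.2% from the fourth on. Windows outside an edge may lie in a neighbouring stretch, as 54.6% do at the 50th window.

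The 300 intervals between neighbouring stretches of a chromosome were of very different widths. Their median was 39 windows (11.7 kb), 54 were a single window and 92 had at least 100 windows. The widest, at 414301 to 690600 of chromosome 12, spanned 276.3 kb and held 156 windows at or above the threshold in both tables. Its gene cover was 58.0%. Single-window intervals had a median E of 0.68 in the primary table and 0.48 in the multi-mapped one, against 0.77 and 0.51 for all windows that end runs. A gene held the midpoint of 30 of these 54 (55.6%), against 35.7% of all windows that end runs. Joining stretches across single windows would leave 259, of which the longest after that of chromosome 1 would be 477.6 kb on chromosome 8 and 472.5 kb on chromosome 3, each of 3 joined stretches.

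The stretches could be drawn from the columns of 1 tag and read in the columns of the other, which the drawing did not use. The rule itself used both tags, and the labels do not tie them to the biological replicates. The columns may be technical repeats, so these values are a description and no independent test of the stretches. Drawn from the 1_1 columns, 332 stretches covered 75.5% of the chromosomes. In the B_1 columns their median E was -0.04, against 0.23 in the rest, in the primary table, and 2.02% of their windows reached the threshold in both tables, against 27.2% of the rest. Drawn from the B_1 columns, 342 stretches covered 58.6% of the chromosomes. In the 1_1 columns their median E was -0.04, against 0.08 in the rest, and 0.156% of their windows reached the threshold in both tables, against 6.30% of the rest. The B_1 columns thus held more windows past the threshold, and of the windows in their stretches 96.3% lay in stretches of the 1_1 columns too. Of the windows in stretches of the 1_1 columns, 74.7% lay in those of the B_1 columns.

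Inside the stretches, E of single windows was less alike between the tags than in the rest. The Pearson r over windows between E of the 1_1 columns and E of the B_1 columns was 0.335 in the stretches and 0.881 in the rest in the primary table, and 0.265 and 0.798 in the multi-mapped table. The narrower range of E in the stretches enters this value. The IP columns differed from each other by more than counting noise in the primary table, with a chi-square per degree of freedom of 6.31 in the stretches and 15.7 in the rest. The inputs were closer, with 1.77 in the stretches and 2.05 in the rest. With multi-mapped counts the IP columns differed by less than sampling noise in the stretches (0.844) and by more in the rest (2.01). The input columns differed by less than it in both (0.919 in the stretches and 0.873 in the rest). The columns were kept as 2 per group because the same tags differed beyond it in the primary table. That difference does not show whether the columns are biological or technical repeats.

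Calls of the quasi-likelihood test of edgeR, fitted on all windows, use the same contrast as the rule and are listed here without reading anything from them. Of 86389 stretch windows tested in the primary table, 688 (0.796%) were higher in IP at a Benjamini-Hochberg adjusted p under 0.05, where 8.76% of all tested windows were. Lower in IP were 617 (0.714%), where 0.640% of all tested windows were. A change of at least 2-fold was found in 28 of the higher and 0 of the lower windows. At an unadjusted p under 0.05 there were 2786 higher and 6203 lower. For both of these settings the share over all tested windows was not computed, so these counts cannot be set against a background. By multi-mapped counts, 553 stretch windows were higher and 797 lower, where 7.00% and 0.816% of all tested windows were. Both tables called 223 higher windows, which is 32.4% of the primary and 42.9% of the multi-mapped calls among stretch windows tested in both, and 230 lower windows, which is 37.3% and 29.0%.

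The 3 raised stretches held 104 of the 688 higher windows, or 29.6% of their own windows, against 0.677% in the other 310. Higher windows had their midpoint in a gene in 54.4% of cases and lower windows in 85.9%, where 70.2% of tested stretch windows did. The authors' deposited table of primary counts listed 110 stretch windows (0.127%) as higher in IP at their adjusted p under 0.05, where 3.26% of all windows were. The authors' deposited table of multi-mapped counts listed 40 (0.0462%), where 3.21% of all windows were. The counts depend on the scaling and on single columns. Library totals in place of TMM move the median of all windows to a log2 ratio of -0.15. With them 264 stretch windows were higher and 6267 lower, where 5.49% and 6.31% of all tested windows were. DESeq2's Wald test gave 431 higher and 163 lower, where 7.56% and 0.177% of all tested windows were. The counts rose when either IP column was left out and fell when either input column was, with 1 column left in that group. The counts over all tested windows moved the same way.

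Of genes lying wholly in stretches, 10087 in all, 9910 could be tested on the sum of their windows in the primary table. By the same edgeR test 102 (1.03%) were higher in IP, where 11.2% of all tested genes were, and 56 (0.565%) were lower, where 0.544% of all tested genes were. By multi-mapped counts 89 genes were higher and 63 lower, where 11.1% and 0.611% of all tested genes were, and 55 higher and 23 lower genes were called in both tables. The 3 raised stretches accounted for 30 of the 102. With library totals there were 63 higher and 1056 lower, where 9.86% and 9.68% of all tested genes were. The gene counts rose when either IP column was left out and fell without the input column 1_1. The counts over all tested genes did the same.

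Gene values in the stretches spanned a narrow range, and the gene table names these genes only by locus tag, so no role is given for them. The median log2 fold change of IP over input was -0.02, against -0.01 for all tested genes, and 95% of genes in the stretches lay between -0.22 and 0.23. The longest gene of the longest stretch, CC1G_03757 of 11355 bp, had 264 and 266 CPM over its 38 windows in the IP columns, against 296 and 304 CPM in the inputs. Its log2 fold change after TMM scaling was -0.01 ± 0.06 (SE derived from edgeR's F statistic, 2 columns per group). Among the longest genes of the 10 longest stretches the lowest adjusted p of edgeR in the primary table was 0.104, for CC1G_06685 at a log2 fold change of -0.18. That gene did pass with library totals (adjusted p = 0.0121), without IP 1_1 (0.00999) and without IP B_1 (0.0392).

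Among called genes the highest was CC1G_06079 on chromosome 2, a 913 bp model with 3 windows. It had 37.5 and 50.3 CPM in the IP columns, against 18.7 and 17.4 CPM in the inputs, in the primary table. Its multi-mapped level was 18.7 and 18.6 CPM in the IP columns, against 16.9 and 16.1 CPM in the inputs. Its log2 fold change was 1.45 ± 0.14 in the primary table and 0.30 ± 0.07 in the multi-mapped one. Both IP columns were above both inputs in each table, by far less in the second. The next 5 were CC1G_10449, CC1G_02338, CC1G_12583, CC1G_13133 and CC1G_10558. Their log2 fold changes were 0.89 to 1.08 in the primary table and 0.30 to 0.35 in the multi-mapped one. The IP columns of CC1G_12583 held 12.8 and 15.2 CPM in the primary table, against 241 and 274 CPM in the multi-mapped one. Those of CC1G_13133 held 3.40 and 2.92 CPM, against 46.9 and 55.6 CPM. The primary level was also the lower one in CC1G_02338 (1.15 and 1.47 against 12.7 and 13.8 CPM) and CC1G_10449 (4.75 and 5.42 against 16.4 and 17.9 CPM). CC1G_10558 went the other way, with 23.8 and 27.3 against 14.4 and 14.3 CPM. CC1G_02338, with an adjusted p of 0.0491 in edgeR, lost its call in edgeR with DESeq2's size factors (0.0556), library totals (0.0507), no filter on low counts (0.0529), and on leaving out IP B_1 (0.0582), input 1_1 (0.227) or input B_1 (0.158), and in DESeq2's Wald test (0.152). CC1G_13133 was not called by edgeR without input B_1 (0.0614).

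The lowest called gene was CC1G_05768 on chromosome 7. It had 0.998 and 0.670 CPM in the IP columns, against 1.83 and 1.79 CPM in the inputs, in the primary table, a log2 fold change of -0.91 ± 0.25. Its multi-mapped level was 39.5 and 43.6 CPM in the IP columns, against 45.4 and 46.7 CPM in the inputs, and a log2 fold change of -0.03. Its level in the primary table was thus a small part of that in the multi-mapped one. The next 5, CC1G_06086, CC1G_05441, CC1G_01440, CC1G_14560 and CC1G_02105, had log2 fold changes of -0.46 to -0.40. Of these 6 lowest genes CC1G_01440 alone was called in the multi-mapped table as well, with -0.35 ± 0.08. Each of the 6 lost its edgeR call when 1 of the input columns was left out.

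Of the tRNA genes in the stretches 58 hold a window midpoint and enough counts, and 1 was higher and 0 lower by edgeR, where 11.2% and 0.544% of all tested genes were. A 300 bp window is several times longer than a tRNA gene, so these values include the sequence beside it. The highest, CC1G_20128 on chromosome 5, had 8.14 and 9.54 CPM in the IP columns, against 6.32 and 7.31 CPM in the inputs, a log2 fold change of 0.54 ± 0.14. It was called by edgeR in the primary table (adjusted p = 0.0263), but not without input 1_1 (0.219) and not in the multi-mapped table, where its log2 fold change was 0.31 (0.0883). The lowest, CC1G_20203 on chromosome 12, had 1.34 and 1.28 CPM in the IP columns, against 2.19 and 2.15 CPM in the inputs, a log2 fold change of -0.56 ± 0.19. It was not called by edgeR (adjusted p = 0.116) except with library totals (0.0412), and its multi-mapped value was -0.02. The median over the 58 was 0.07.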

How the data were processed

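Oidial DNA was isolated with the DNeasy Plant Mini Kit and sequenced from TruSeq libraries, per the labels' protocols. Bismark 0.6.4, Bowtie 0.12.7 and edgeR stand in the submitters' processing notes. No source used here names the genome build or any read filter. The authors deposited counts of reads per 300 bp window, with log2 fold changes (input over IP) and adjusted p-values. A further 8 columns of per-sample values were not used.

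Counts were scaled to CPM by column totals. Calls used edgeR 4.0.16 (R 4.3.3; TMM, quasi-likelihood test, total of at least 10 counts, Benjamini-Hochberg adjusted p under 0.05), with DESeq2 1.42.0 as an alternative, and the fits were tested on simulated data. P-values measure only the spread between 2 columns per group, which may be technical, and standard errors of E in a window cover counting error only. The SE of a log2 fold change is its absolute value over the square root of edgeR's F statistic, and not the plain spread of the columns. Genes came from a RefSeq table of assembly CC3, and gene counts are sums over windows with their midpoint in the gene. The match of both grids was checked by shifting: input counts and gene cover correlated best without a shift on 13 of 13 chromosomes (r of 0.146 to 0.271). Sequences were not analysed here.

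The stretches, lists and naming rule were chosen with earlier results of these data known. Named stretches are the 10 longest, the longest of each chromosome, the 3 highest and 3 lowest in gene cover and mean E, and those just inside the minimum length. Named genes are the longest of each of the 10 longest stretches, the 6 highest and 6 lowest called ones (50 counts or more, both IP columns in 1 direction), and the highest and lowest tRNA gene. Windows singled out for a high value in 1 table, and the 3 raised stretches, were chosen after their values were seen.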

Additional observations from a re-analysis of the deposited data

How the results depend on the processing

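The differences in gene cover and in windows of low input kept their sign under the alternatives run. The number of stretches was 477 with runs of at least 50 windows and 157 with at least 200, and 298 to 348 with 1 column left out. Their share of the chromosomes was 60.1% with an E threshold of 0.3, 54.1% with at least 200 windows and 56.5% with the primary table alone, and 63.7% to 78.5% with 1 column left out. The difference in gene cover (17.6 points) was 13.9 and 20.1 with thresholds of 0.3 and 0.5, 22.8 and 12.7 with at least 50 and 200 windows, 18.9 with 1 CPM added, 13.8 and 16.9 with the primary and the multi-mapped table alone, and 14.96 to 18.4 with 1 column left out. The difference in windows of low input (-6.13 points) was -4.61 at 0.3, -7.81 and -3.99 with at least 50 and 200 windows, -4.37 with the primary table alone, and -5.46 to -5.08 with 1 column left out.

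The call counts moved most, and their balance turned: 688 windows were higher and 617 lower, but lower windows outnumbered higher ones with multi-mapped counts (553 higher and 797 lower), library totals, a block by tag and either IP column left out. Lower genes outnumbered higher ones with library totals, the block and either IP column left out. At an adjusted p under 0.01 there were 227 higher and 41 lower windows and 54 higher and 3 lower genes. The shares over all tested windows and genes at that threshold were not computed. Library totals gave 264 and 6267 windows and 63 and 1056 genes, and DESeq2's Wald test 431 and 163 windows. With 1 column left out the counts ran from 192 to 4055 higher and 41 to 9042 lower windows, and from 67 to 502 higher and 8 to 1056 lower genes, the lone column of a group being assumed to vary like the other group. The column tags are not replicate numbers of the labels. A replicate block by tag gave 1829 higher and 3812 lower windows, where 12.4% and 3.88% of all tested windows were. It gave 248 higher and 473 lower genes, where 13.6% and 4.49% of all tested genes were. The correlation of the IP and input differences between the tags was 0.180 (primary) and 0.0619 (multi-mapped) over chromosome windows, and 0.214 and 0.118 over stretch windows. Without the 3 raised stretches, an alternative chosen after seeing the data, there were 584 higher and 617 lower windows and 72 higher and 56 lower genes, and gene cover differed by 17.4 points. Separate columns for the 5 IP libraries were not used here.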
